A study of Mus musculus with 23 samples.

Results

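The genes described are 10 transcription regulators of the helix-loop-helix class that bind to, or compete with, the muscle factors of the MyoD family. They are the inhibitors Id1, Id2, Id3 and Id4, the repressors Twist1, Twist2 and Msc (also called MyoR or musculin), and the E proteins Tcf3, Tcf4 and Tcf12. They were taken by symbol from the gene tables, where they make up 10 of 32793 rows. Rows were matched by symbol and not by their values, though the list itself was chosen with earlier results of these data known. Of the 10 genes, 8 passed the filter on low counts and were tested together with all other genes, 14187 in total. Id4 had between 1 and 7 estimated counts per library and was not tested. Twist1 is listed at 0 in all 23 libraries; whether the authors' counting could assign reads to this row was not tested, so no limit on its expression is given.

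All cells were of the C2C12 line, myoblasts of the mouse that proliferate in rich serum and form myotubes once serum is reduced. Control cells (here WT) and cells labelled Runx1KO (here labelled KO) were sampled while growing in 20% fetal bovine serum (day 0) and on days 1, 3 and 6 of differentiation in 2% horse serum. The sample titles give day 6 for the last time point and the series text gives day 5; the titles were followed. The 8 groups held 3 libraries each, except WT day 0, of which 2 libraries were analysed here. The labels give no age, no further treatment, no description of how the knockout was made and no number of clones. They do not say that libraries of a group came from separate cultures, so p-values measure only the spread between these libraries, which may be technical.

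MyoD, Myf5, myogenin and Myf6 bind DNA at E-boxes as dimers with an E protein. Id proteins have the helix-loop-helix dimerisation surface but lack the basic region that contacts DNA, so an E protein held by an Id cannot bind DNA. Twist proteins and Msc do have a basic region; they dimerise with E proteins, compete for them and act as repressors of muscle genes. Id genes are textbook targets of BMP signalling through Smad proteins, and high Id levels are associated with dividing, undifferentiated myoblasts.

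The libraries held 22197606 to 23684077 estimated counts each. Runx1, the targeted gene, was read as a check on the genotype labels, and its mRNA was higher in labelled-KO libraries on all 4 days. Its mean was 119.8 ± 2.15 (SD, n = 3) against 84.0 ± 0.049 (SD, n = 2) CPM (counts scaled to library size) on day 0 and 311 ± 11.8 against 153 ± 10.4 CPM (SD, n = 3 each) on day 6. A transcript can persist when its protein is lost, so this mRNA does not settle whether the labels are right. Each direction below refers to the label of a library. Replicate 2 of day 1 labelled KO stands apart: its deviation from its group correlated with GC content across 13265 genes (r = -0.62, genes not being independent replicates). Its root mean square deviation was 0.545 on the log2 scale, against 0.316 to 0.403 in the other 22 libraries. Muscle identity was checked on 10 markers; 6 had a mean of at least 1 TPM (length-corrected transcript abundance) in both day 0 groups and 10 in every later group.

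On day 0 the Id genes dominated the set. TPM allows levels of different genes to be compared. In WT the order of mean TPM on day 0 was Id3 (407 ± 12.4), Id1 (163 ± 4.72), Tcf3 (136 ± 15.4), Id2 (91.6 ± 2.71), Twist2 (57.0 ± 1.32), Tcf12 (51.8 ± 4.43), Tcf4 (13.9 ± 0.863) and Msc (1.74 ± 0.283), each with its SD over 2 libraries. No neighbours in this order overlapped in their library values. Labelled-KO libraries had the same order, except that Tcf12 stood above Twist2 and that Id1 and Tcf3 overlapped.

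From day 1 on, Tcf3 and then Tcf12 were the most abundant of the genes in all 6 groups, and neither overlapped with its neighbour in the order. Id3 had dropped to sixth place on day 1 in both genotypes. On day 6 in WT the order continued with Twist2 (36.5 ± 3.47 TPM), Id2 (35.7 ± 2.39) and Tcf4 (31.4 ± 5.25), which overlapped, followed by Id1 (11.6 ± 1.30) and Id3 (8.60 ± 0.559), which did not. On day 6 in labelled-KO libraries the gene after Tcf12 was Id1 (44.4 ± 0.695 TPM), which overlapped with no neighbour. Id2 (26.7 ± 2.09), Tcf4 (22.6 ± 2.46), Id3 (22.2 ± 3.38) and Twist2 (21.8 ± 2.37) followed without separation.

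**Figure D1:**
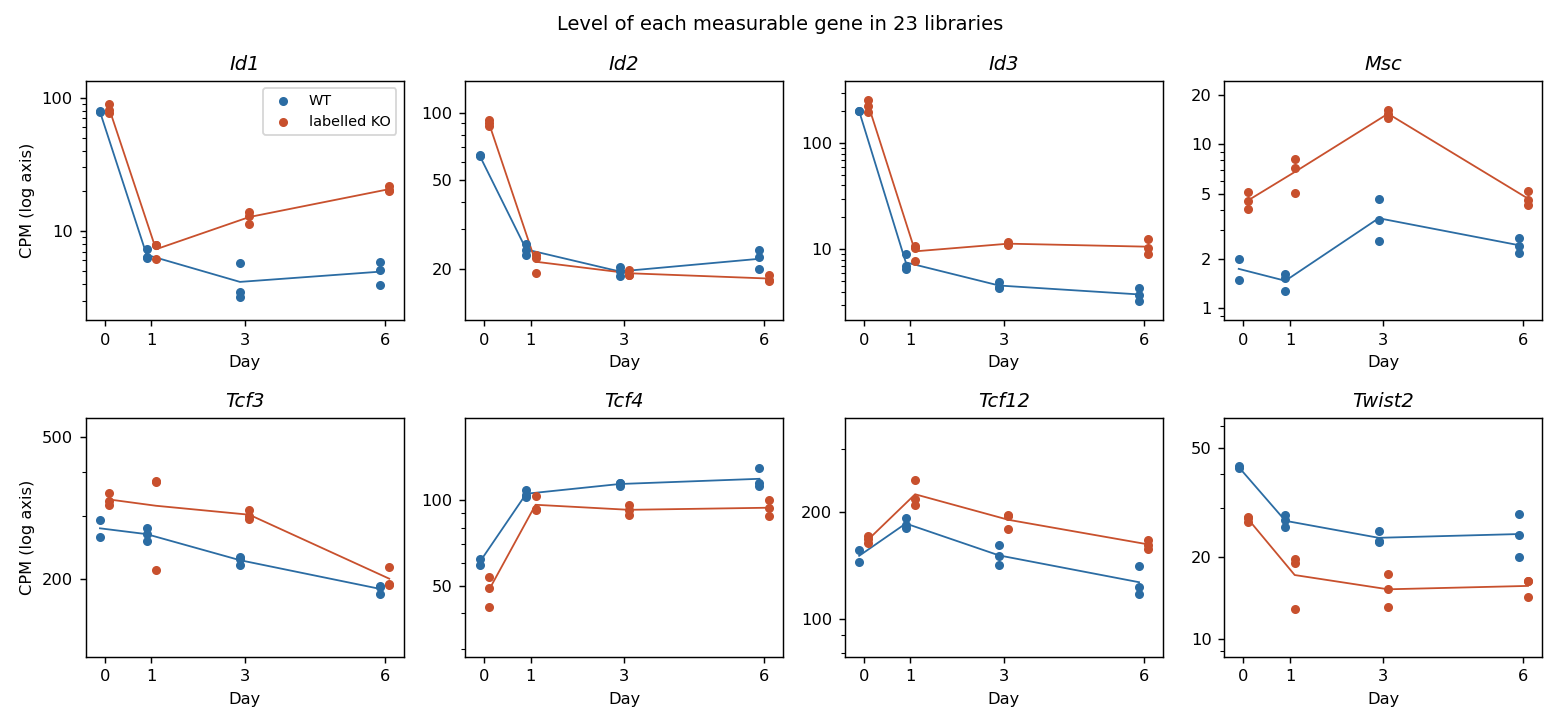
Level of the 8 tested genes in 23 libraries, as CPM on a log axis against day; each point is 1 library, lines join group means, blue is WT and red is labelled KO. Id1, Id2 and Id3 drop between days 0 and 1 in both genotypes, and from day 3 the red points of Id1 and Id3 lie above the blue ones.

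Each time point was set against growth medium within a genotype. In WT, 6 of the 8 tested genes changed on day 1, 6 on day 3 and 7 on day 6 (edgeR quasi-likelihood test, Benjamini-Hochberg adjusted p under 0.05 over all tested genes), against 54.7%, 58.2% and 63.6% of all tested genes. In labelled-KO libraries, 7, 7 and 6 of 8 changed, against 52.3%, 57.6% and 70.0% of all tested genes. These counts include calls of Tcf12 and Msc that were lost in other settings, given with those genes. The median log2 fold change of the 8 genes was -0.69 in WT and -0.77 in labelled-KO libraries on day 6, beside 0.05 for all tested genes in each. In bulk RNA, fewer cells expressing a gene and less RNA per cell cannot be told apart.

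Id3, the most abundant Id gene of growing cells, showed the deepest fall. In WT it stood at 199.97 and 202 CPM on day 0 and at 6.92, 6.57 and 9.10 CPM on day 1. It then read 4.44, 4.94 and 4.29 CPM on day 3 and 3.70, 4.35 and 3.23 CPM on day 6. Every differentiating WT library was far below both growing ones, and the log2 fold change on day 6 was -5.74 (SE 0.157, adjusted p = 5.23e-18). In labelled-KO libraries it went from 199, 224 and 257 CPM on day 0 to 10.4, 8.95 and 12.5 CPM on day 6, a log2 fold change of -4.42 (SE 0.137, adjusted p = 5.79e-18).

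Id1 fell on day 1 by a similar amount in both genotypes, with log2 fold changes of -3.57 (SE 0.156) in WT and -3.50 (SE 0.148) in labelled-KO libraries. Its day 0 levels were 77.9 and 78.9 CPM in WT and 77.1, 80.9 and 88.9 CPM in labelled-KO libraries. Its day 1 levels were 7.26, 6.32 and 6.24 CPM in WT and 7.80, 6.20 and 7.83 CPM in labelled-KO libraries, so the genotypes overlapped on both days. The genotype difference was 0.07 on day 0 (95% interval -0.21 to 0.35) and 0.14 on day 1 (-0.18 to 0.45) on the log2 scale, and neither passed the test.

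After day 1 the genotypes diverged for Id1. In WT it stayed low, at 5.75, 3.47 and 3.21 CPM on day 3 and 5.07, 5.85 and 3.90 CPM on day 6. In labelled-KO libraries it read 13.9, 12.9 and 11.3 CPM on day 3 and 19.8, 20.4 and 21.6 CPM on day 6. The genotypes did not overlap on either day. On day 3 the log2 fold change reached 1.62 (SE 0.162, adjusted p = 2.91e-08). By day 6 it had reached 2.06 (SE 0.155, adjusted p = 1.66e-10), a 4.17-fold ratio of means.

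Day 6 was also set against day 1 within each genotype, a comparison added after the data had been seen. Here 4 of 8 genes changed in WT and 5 of 8 in labelled-KO libraries, against 33.1% and 55.0% of all tested genes. Of these calls, Msc in WT was lost without replicate 1 of day 1 (adjusted p = 0.0747) or replicate 2 of day 6 (0.0649). In labelled-KO libraries Msc was lost without replicate 1 of day 1 (0.104), without replicate 3 of day 6 (0.0639) and with only the groups compared (0.0568). Id2 there was lost without replicate 2 (0.0532) or replicate 3 (0.0511) of day 1, without the filter (0.0548) and with only the groups compared (0.129). Id1 rose between days 1 and 6 in labelled-KO libraries, with a log2 fold change of 1.50 (SE 0.148, adjusted p = 1.02e-08), and by 1.39 without replicate 2 of day 1. In WT the value was -0.42 (SE 0.167, adjusted p = 0.0559), which did not pass. It did pass without the filter (adjusted p = 0.0288), with DESeq2 (0.0302) and without replicate 2 of WT day 6 (0.0252). Id3 fell further in WT over this interval, by 1.00 on the log2 scale (SE 0.164, adjusted p = 4.44e-05), and gave 0.15 in labelled-KO libraries (95% interval -0.13 to 0.42), or 0.0041 without replicate 2 of day 1.

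Between genotypes, 4 of 8 genes differed on day 0, 3 on day 1, 7 on day 3 and 7 on day 6, against 17.5%, 42.2%, 43.2% and 42.9% of all tested genes. Higher with the KO label were 2, 2, 5 and 4 genes, against 7.36%, 22.9%, 24.0% and 22.0% of all tested genes. Lower were 2, 1, 2 and 3 genes, against 10.1%, 19.2%, 19.2% and 20.8%. The balance over all genes depends on the scaling. Of all calls, 42.1%, 54.4%, 55.5% and 51.4% were higher on the 4 days, against 31.3%, 43.3%, 34.3% and 34.9% on the log2(TPM + 1) scale and 29.5% on day 0 with library size alone. Without replicate 2 of day 1 labelled KO the day 1 count was 7 of 8, with Id2, Id3, Tcf3 and Tcf4 added, against 38.6% of all genes tested in that setting. The median log2 fold change over the 8 genes was 0.16, 0.20, 0.38 and 0.22 on days 0, 1, 3 and 6, and that of all tested genes was -0.00, 0.03, 0.04 and 0.00.

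Id3 followed Id1 in the genotype comparison. It was at 11.0, 11.7 and 11.3 CPM on day 3 in labelled-KO libraries, above the 4.29 to 4.94 CPM of WT. That gave a log2 fold change of 1.31 (SE 0.154, adjusted p = 3.20e-07), and day 6 gave 1.50 (SE 0.159, adjusted p = 5.51e-08). On day 1 the groups overlapped, and the value of 0.34 (SE 0.146, adjusted p = 0.0627) did not pass. It passed without replicate 2 of day 1 labelled KO (0.46, adjusted p = 0.0159) and without replicate 3 of WT day 1 (0.50, adjusted p = 0.0143).

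Id2, which shares the dimerisation surface of Id1 and Id3, moved the other way. On day 0 it was higher in labelled-KO libraries, at 87.1, 92.7 and 90.6 CPM against 64.1 and 64.9 CPM, with a log2 fold change of 0.48 (SE 0.087, adjusted p = 0.000286). On day 6 it was lower, at 18.7, 17.8 and 17.6 CPM against 24.2, 22.5 and 19.8 CPM, a log2 fold change of -0.29 (SE 0.084, adjusted p = 0.00658). The groups were separate on both days, and in CPM they overlapped on days 1 and 3; in TPM they were separate on day 3 too, at 26.5 to 28.9 against 29.9 to 32.2 TPM. Its fall from growth medium on day 6 gave log2 fold changes of -1.54 (SE 0.088) in WT and -2.32 (SE 0.083) in labelled-KO libraries, shallower than that of Id3 in both.

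An interaction term asked whether the response to differentiation depended on genotype. Of the 8 genes, 1 passed on day 1, 3 on day 3 and 3 on day 6, against 3.95%, 10.7% and 13.0% of all tested genes. Those that passed were Id1, Id2 and Id3. For Id1 the difference in log2 fold change (labelled KO minus WT) was 1.55 (SE 0.214, adjusted p = 2.68e-05) for day 3, rising to 1.99 (SE 0.208, adjusted p = 3.59e-07) for day 6. For Id3 the same days gave 1.14 (SE 0.199, adjusted p = 0.000398) and 1.32 (SE 0.203, adjusted p = 6.48e-05). For Id2 it was negative on all 3 days, at -0.67 (adjusted p = 0.00226), -0.51 (adjusted p = 0.00679) and -0.78 (adjusted p = 7.58e-05). All 3 fell early in both genotypes. On day 6 the genotype difference of Id2 was negative and those of Id1 and Id3 positive; on day 3 that of Id2 was -0.03 (95% interval -0.19 to 0.14), and its interactions include its higher day 0 level with the KO label.

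The genes lie apart in the genome. In the GENCODE M21 annotation of GRCm38, Id1 spans chr2:152736251-152737410 on the plus strand, Id2 chr12:25093799-25097140 on the minus strand and Id3 chr4:136143497-136145755 on the plus strand. Windows of 250 bases before the RefSeq start were found for 7 of the 10 genes in a promoter table from RefSeq (GRCm38.p6). For Id2 and Id3 this start lies downstream of the GENCODE start, so their windows lie within the gene spans given above. They were searched on both strands for CANNTG (the E-box), TGTGGT (the core of Runx sites) and GGCGCC (a GC motif bound by BMP Smads), none of which overlapped another in these windows. CANNTG occurs in 66.2% of the 32851 windows of the table, TGTGGT in 14.0% and GGCGCC in 9.59%. The Id2 window held 1 CANNTG, which reads the same on both strands as CAGCTG, starting 196 bases before the RefSeq start, and 1 GGCGCC starting 231 bases before it. The Id3 window held none of the 3. The part of the Id2 window outside annotated exons, intronic in GENCODE, chr12:25096254-25096342 on the minus strand, is shown because Id2 is the Id gene whose genotype difference turned around, with both matches in capitals.
Id2: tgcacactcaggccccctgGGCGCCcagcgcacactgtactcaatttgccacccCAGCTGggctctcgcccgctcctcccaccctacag

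Id4 was near the detection limit throughout, with a highest value of 7 counts in a WT day 6 library and group means between 0.0667 and 0.253 TPM. An antisense gene, A330033J07Rik, overlaps it over 1396 bases and was at 0 counts in all libraries.

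Msc, a repressor of myogenesis, was scarce in WT and higher in labelled-KO libraries on every day. On day 0 it read 4.04, 4.53 and 5.10 CPM in labelled-KO libraries against 1.50 and 1.99 CPM in WT. Its peak on day 3 was 16.2, 14.6 and 15.3 CPM against 4.62, 3.47 and 2.56 CPM. Day 6 values were 4.59, 5.16 and 4.27 CPM against 2.41, 2.71 and 2.18 CPM. The genotypes did not overlap on any day, and the log2 fold changes were 1.39 (SE 0.242), 2.20 (SE 0.208), 2.11 (SE 0.183) and 0.94 (SE 0.200) on days 0, 1, 3 and 6, with adjusted p = 0.000198, 1.76e-08, 2.66e-09 and 0.000512.

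The day 3 level of Msc was above growth medium in both genotypes, with log2 fold changes of 1.03 (SE 0.245, adjusted p = 0.00102) in WT and 1.75 (SE 0.179, adjusted p = 1.45e-08) in labelled-KO libraries. The difference between these was 0.73 (SE 0.307, adjusted p = 0.144) and did not pass. It passed on the log2(TPM + 1) scale (0.79, adjusted p = 0.0212) and without replicate 1 of WT day 3 (0.96, adjusted p = 0.0449). On day 1 the labelled-KO rise from growth medium was 0.57 (adjusted p = 0.0118), and its call was lost without replicate 1 of day 1 (0.42, adjusted p = 0.0788). On day 6 neither genotype passed against growth medium by this test, at 0.48 (adjusted p = 0.102) and 0.04 (adjusted p = 0.872). The WT value passed with library size alone (0.56, adjusted p = 0.0490), on the log2(TPM + 1) scale (0.46, adjusted p = 0.0184) and on the log2(TPM + 0.1) scale (0.64, adjusted p = 0.00877). An antisense gene, Gm9947, covers all 2647 bases of Msc, and whether the counting used strand is not given in the sources used here, so reads from the pair cannot be told apart.

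Twist2, a repressor of myogenic factors that also marks mesenchymal progenitors, was lower in labelled-KO libraries by nearly the same amount on all 4 days. On day 0 it read 27.6, 27.9 and 26.9 CPM in labelled-KO libraries against 42.1 and 43.0 CPM in WT. On day 6 it read 16.3, 16.3 and 14.3 CPM against 24.0, 28.7 and 19.9 CPM. The groups did not overlap on any day. The log2 fold changes were -0.63 (SE 0.140), -0.66 (SE 0.132), -0.63 (SE 0.134) and -0.63 (SE 0.133), with adjusted p = 0.00239, 0.000316, 0.000555 and 0.000494. Without replicate 2 of day 1 labelled KO the day 1 value was -0.51 (adjusted p = 0.00109).

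Within each genotype Twist2 fell from growth medium on day 1, by 0.65 (SE 0.140) in WT and 0.68 (SE 0.132) in labelled-KO libraries on the log2 scale, and it was 0.82 and 0.81 below growth medium on day 6. The difference between these falls on day 6 was 0.00 (95% interval -0.39 to 0.40). Its promoter window, chr1:91801211-91801460 on the plus strand of GRCm38.p6, held none of the 3 motifs and therefore shows no capitals. It is shown because this gene had the most even genotype difference of the set.
Twist2: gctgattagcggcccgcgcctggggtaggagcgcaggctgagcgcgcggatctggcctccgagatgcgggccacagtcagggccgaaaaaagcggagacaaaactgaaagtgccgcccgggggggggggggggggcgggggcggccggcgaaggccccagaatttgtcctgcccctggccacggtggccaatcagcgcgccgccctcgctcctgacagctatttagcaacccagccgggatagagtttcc
An antisense gene, Gm29100, overlaps Twist2 over 1477 bases, with the same limit on strand as for Msc. Its paralogue Twist1 is listed at 0 in both tables and was not tested.

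**Figure D2:**
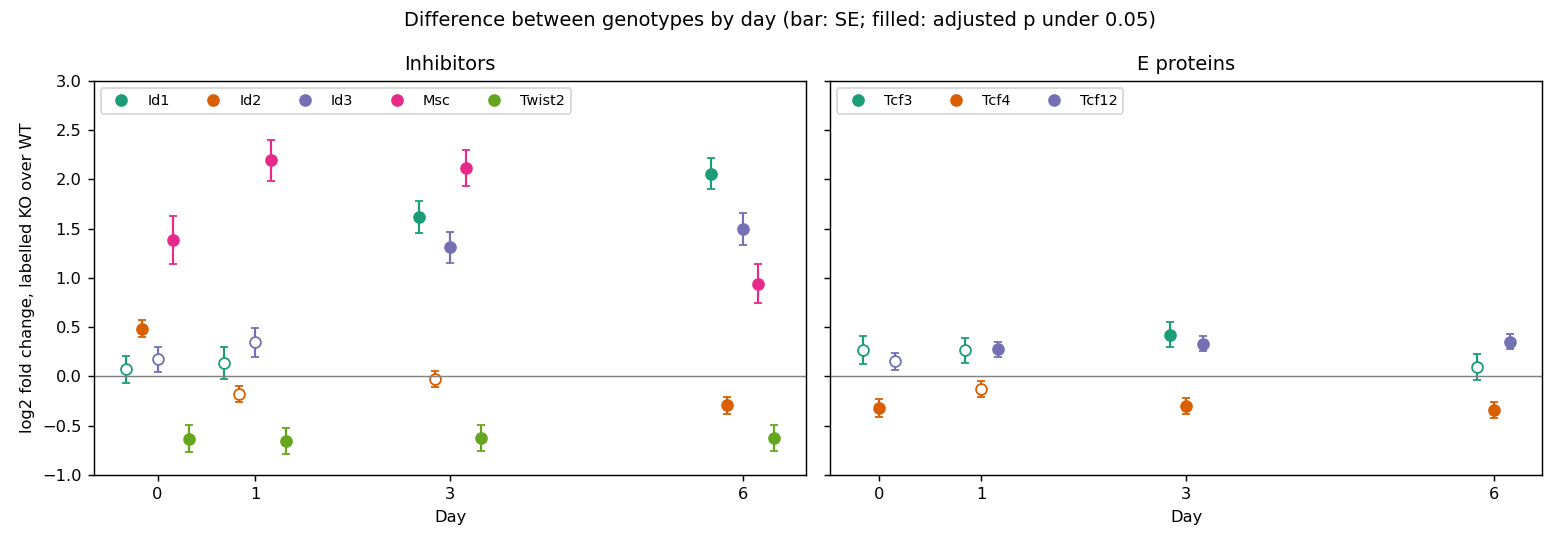
Log2 fold change of labelled KO over WT against day for the inhibitors (left) and the E proteins (right), with bars for 1 SE and filled circles where the adjusted p is under 0.05. Id1 and Id3 climb from near 0 to 2.06 and 1.50, Msc is above 0 and Twist2 below 0 on all days, and no E protein exceeds 0.42 in size with all libraries, as drawn.

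Genotype differences of the E proteins were at most 0.42 in size on the log2 scale with all libraries, and at most 0.47 in any alternative or with any library left out. Tcf4, an E protein, rose on differentiation in both genotypes. It stood at 61.9 and 59.0 CPM on day 0 in WT and at 112, 115 and 130 CPM on day 6. In labelled-KO libraries it stood at 53.6, 48.9 and 42.2 CPM on day 0 and at 100.2, 93.9 and 88.0 CPM on day 6. The log2 fold change on day 6 was 0.98 (SE 0.094, adjusted p = 4.14e-09) in WT and 0.96 (SE 0.083, adjusted p = 3.96e-10) in labelled-KO libraries, and every differentiating library was above every growing one of its genotype.

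Tcf4 was lower in labelled-KO libraries on days 0, 3 and 6, with log2 fold changes of -0.33 (SE 0.092, adjusted p = 0.0155), -0.30 (SE 0.081, adjusted p = 0.00415) and -0.34 (SE 0.081, adjusted p = 0.00157). On day 1 the value was -0.13 (adjusted p = 0.211), and -0.21 (adjusted p = 0.0450) without replicate 2 of day 1 labelled KO. The day 0 call was lost without replicate 3 of day 0 labelled KO (adjusted p = 0.101), without either WT day 0 library (0.207 and 0.0556), and on the log2(TPM + 1) scale (0.0574).

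Tcf12, the E protein also called HEB, peaked on day 1. In WT it read 156 and 144 CPM on day 0, 192, 184 and 180 CPM on day 1 and 123, 117 and 140 CPM on day 6. In labelled-KO libraries it read 168, 163 and 171 CPM on day 0, 209, 245 and 218 CPM on day 1 and 167, 162 and 157 CPM on day 6. In CPM the genotypes did not overlap on any day, and Tcf12 passed as higher in labelled-KO libraries on days 1, 3 and 6, with log2 fold changes of 0.27 (SE 0.076), 0.33 (SE 0.077) and 0.35 (SE 0.077). On the log2(TPM + 1) scale, where limma was used, the values were 0.23, 0.19 and 0.23 and none of the 3 passed (adjusted p = 0.105, 0.178 and 0.103). In TPM the genotypes overlapped on all 4 days, at 54.7 to 63.3 TPM in labelled-KO libraries against 43.3 to 60.8 TPM in WT on day 6. The day 1 value was 0.18 (adjusted p = 0.0481) without replicate 2 of day 1 labelled KO, and its call was lost when only the groups compared were fitted (adjusted p = 0.0865).

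Against growth medium Tcf12 rose on day 1, by log2 fold changes of 0.30 in WT (adjusted p = 0.00489) and 0.42 in labelled-KO libraries (adjusted p = 6.78e-05). The WT call was lost without replicate 2 of WT day 0 (adjusted p = 0.0873). On day 6 in WT it was lower than on day 0, at -0.25 (adjusted p = 0.0151), a call lost in 6 of 13 other settings with adjusted p from 0.0697 to 0.721. Among these were the omission of replicate 1 of day 0 and of replicates 1 and 2 of day 6, library size alone and both TPM scales. On day 3 in labelled-KO libraries the value of 0.18 (adjusted p = 0.0454) was lost in 9 of 14 other settings, with adjusted p from 0.0594 to 0.269. These were RLE size factors, no filter, DESeq2, the replicate block and the omission of any of the 3 day 0 libraries or of replicates 1 and 3 of day 3.

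Tcf3, which encodes the E2A proteins that pair with MyoD, fell between days 0 and 6 in both genotypes, by 0.56 (SE 0.142, adjusted p = 0.00143) in WT and 0.74 (SE 0.129, adjusted p = 2.23e-05) in labelled-KO libraries on the log2 scale. On day 3 it read 301, 295 and 313 CPM in labelled-KO libraries, above the 231, 228 and 220 CPM of WT. That log2 fold change of 0.42 (SE 0.128, adjusted p = 0.0102) was 0.27 on the log2(TPM + 1) scale (adjusted p = 0.106). On day 6 the value was 0.09 (SE 0.128, adjusted p = 0.590), and it was -0.03 on the log2(TPM + 1) scale.

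Day 1 of Tcf3 turns on the library that stands apart, which read 213 CPM where the other libraries labelled KO read 374 and 378 CPM and WT read 279, 256 and 269 CPM. The log2 fold change was 0.26 (SE 0.128, adjusted p = 0.103) with it and 0.47 (adjusted p = 3.12e-06) without it. Against day 0, labelled KO gave -0.06 (adjusted p = 0.729) with it and 0.17 (adjusted p = 0.0229) without it. The longest Tcf3 transcript has 61.0% GC, against 44.4% for Tcf12 and 40.9% for Tcf4, and the part of GC content in the Tcf3 value was not tested.

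Summed TPM gives the balance of Id and E protein transcripts in each library. The sum of Id1, Id2, Id3 and Id4 was 648 and 676 TPM on day 0 in WT and 672, 710 and 795 TPM in labelled-KO libraries. On day 6 it was 54.0 to 58.5 TPM in WT and 88.3 to 96.7 TPM in labelled-KO libraries. The sum of Tcf3, Tcf4 and Tcf12 moved much less, between 169 and 299 TPM over all libraries. The day 6 ranges of the E protein sum overlapped between genotypes, at 169 to 209 TPM in WT and 170 to 204 TPM in labelled-KO libraries.

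The ratio of the Id sum to the E protein sum was 3.29 ± 0.239 (SD, n = 2) in WT and 3.26 ± 0.260 (SD, n = 3) in labelled-KO libraries on day 0. It was 0.291 ± 0.0168 and 0.257 ± 0.0298 on day 1, with overlapping libraries. On day 3 it was 0.224 to 0.255 in WT and 0.303 to 0.344 in labelled-KO libraries. On day 6 it was 0.258 to 0.330 in WT and 0.474 to 0.562 in labelled-KO libraries. The genotypes were separate on days 3 and 6 and the ratio stayed below 1 in all differentiating libraries. The ratio is a description of transcripts, without a test, and says nothing of protein amounts. Its size depends on the scale, and its day 0 group means were below 1 when taken from summed estimated counts.

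**Figure D3:**
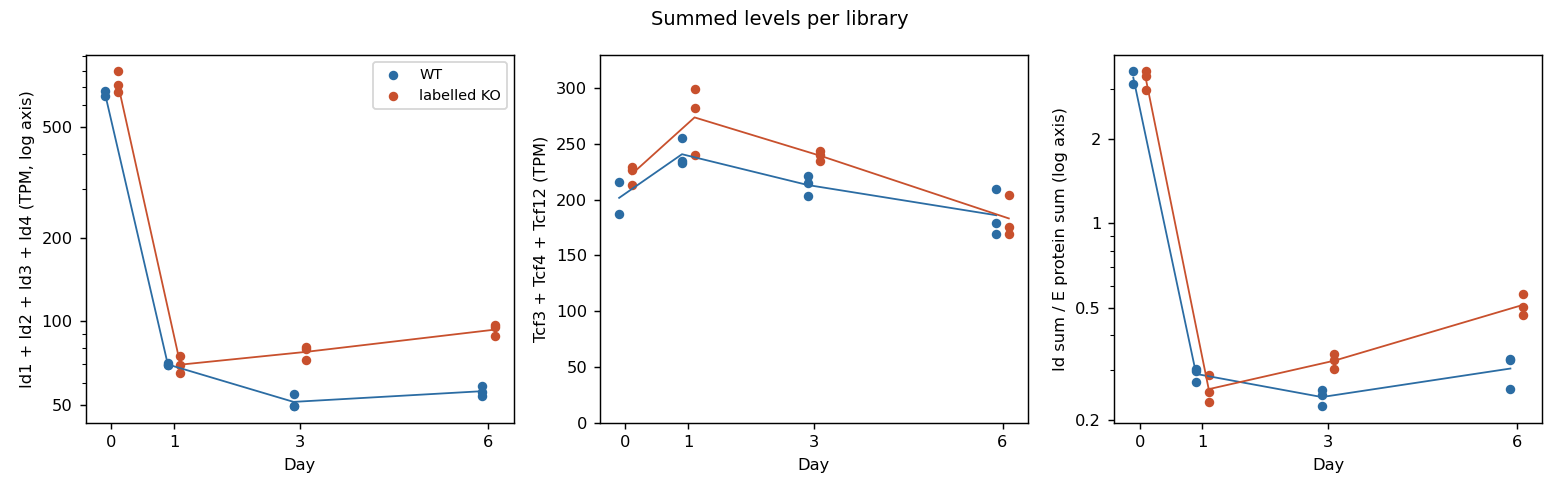
Summed TPM of the Id genes (left, log axis), of the E proteins (middle, linear axis from 0) and their ratio (right, log axis) per library against day, with lines through group means. The Id sum and the ratio separate by genotype on days 3 and 6, with day 6 ratios of 0.474 to 0.562 labelled KO and 0.258 to 0.330 WT.

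The make-up of the Id transcripts changed as well. Id3 gave 61.5% of the Id sum in WT and 60.4% in labelled-KO libraries on day 0. On day 6 Id2 was the main Id transcript in WT, with 60.0% to 65.4% of the sum per library, and Id3 had 14.3% to 16.5%. In labelled-KO libraries Id1 was the main one on day 6, with 46.2% to 49.4%, and Id2 had 26.3% to 30.0%. Among the E proteins the share of Tcf4 went from 6.90% to 16.8% in WT and from 4.79% to 12.3% in labelled-KO libraries between days 0 and 6, as group means. Tcf3 remained above 48.4% in every library except the lowest one, replicate 2 of day 1 labelled KO, which was at that value.

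**Figure D4:**
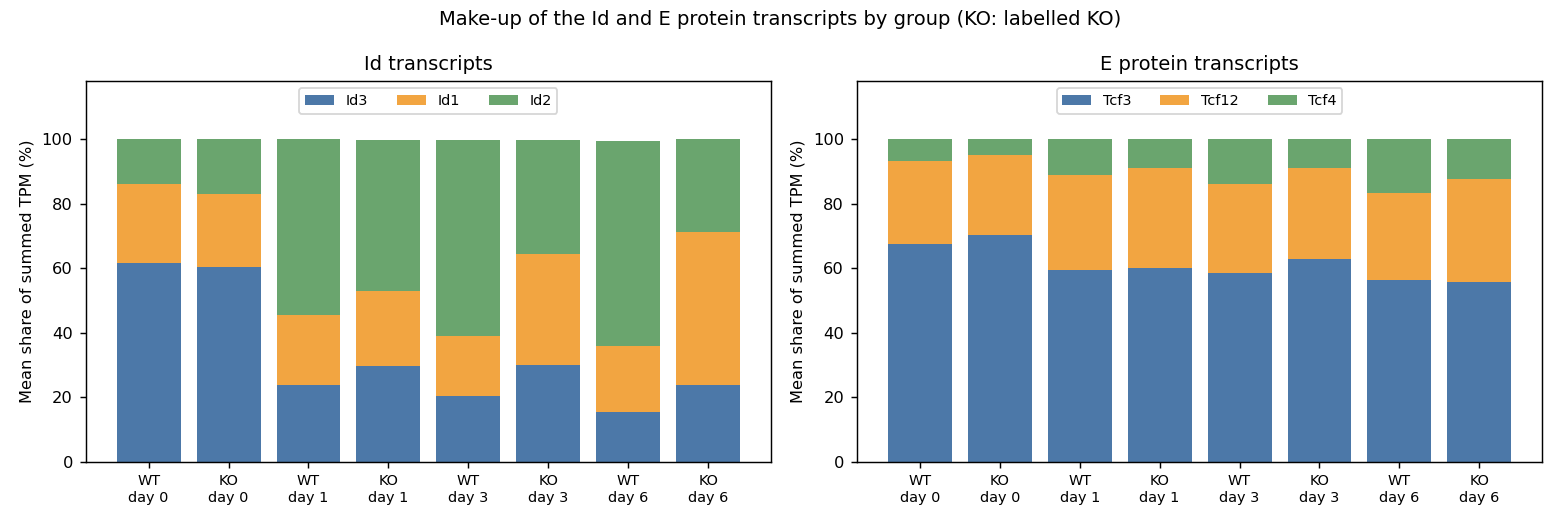
Mean share of each gene in the summed TPM of the Id genes (left) and of the E proteins (right) per group, in percent, stacked; Id4 is too small to be drawn. Id3 holds 61.5% (WT) and 60.4% (labelled KO) on day 0, Id2 is the widest part on day 6 in WT and Id1 in labelled KO.

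Of the 4 myogenic factors, the dimer partners of the E proteins, 1, 2, 2 and 3 passed between genotypes on days 0, 1, 3 and 6, beside 17.5%, 42.2%, 43.2% and 42.9% of all tested genes. Myog, the factor that drives terminal differentiation, had a mean of 909 CPM on day 6 in labelled-KO libraries and 149 CPM in WT, a log2 fold change of 2.61 (SE 0.258, adjusted p = 1.78e-08). Myod1 was at 224 and 183 CPM on day 6 (log2 fold change 0.29, adjusted p = 0.115), and passed on day 3 alone of the 4 days, at 0.56 (SE 0.147, adjusted p = 0.00368). Myf5 was lower in labelled-KO libraries on day 0, at 13.0 against 35.1 CPM (log2 fold change -1.43, SE 0.085, adjusted p = 1.34e-11), on day 1, at 28.1 against 52.2 CPM (-0.89, adjusted p = 1.65e-09), and on day 6, at 26.7 against 33.8 CPM (-0.34, adjusted p = 0.000692). On day 3 its value of -0.10 (adjusted p = 0.261) did not pass. Myf6 had group means under 1 CPM throughout.

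Summed levels of marker lists moved with genotype beside the genes of the set. The leukocyte, adipocyte, smooth muscle, Schwann and neural, and chondrocyte sums were each mostly the level of 1 gene. On day 6 the 10 muscle markers summed to 12012 to 13573 TPM in labelled-KO libraries and 3123 to 3589 TPM in WT. The 4 leukocyte markers summed to 15.5 to 17.2 and 5.14 to 9.14 TPM, of which Ptprc and Adgre1 had no more than 3 counts in any library of either group. The sums of 5 adipocyte markers (11.9 to 14.2 against 20.7 to 25.2 TPM), 3 smooth muscle markers (154 to 171 against 254 to 291 TPM), 4 Schwann and neural markers (23.7 to 27.4 against 45.3 to 53.3 TPM) and 3 chondrocyte markers (43.9 to 52.1 against 54.2 to 70.2 TPM) were lower in labelled-KO libraries. In both day 6 groups Cebpa gave 97.8% (WT) and 96.6% (labelled KO) of the adipocyte sum, Smtn 97.4% and 97.6% of the smooth muscle sum, Tubb3 98.6% and 96.6% of the Schwann and neural sum, Sox9 99.8% and 99.95% of the chondrocyte sum, and Cd68 83.2% and 98.5% of the leukocyte sum. The same genes led these sums in all 8 groups, and the share of Cd68 in the leukocyte sum was lowest in WT on day 3, at 73.6%. Among the lists with lower sums, Adipoq, Plin1, Lep, Sox10 and Col2a1 were at or under 3 counts in both day 6 groups. The day 6 sums of osteoblast and endothelial markers stayed under 2 TPM and overlapped. Their leading gene gave 63.0% (WT) and 76.5% (labelled KO) of the osteoblast sum and 51.2% and 37.3% of the endothelial sum.

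Some of these sums were apart on earlier days too. The muscle sum was 5083 to 7918 TPM in labelled-KO libraries against 3695 to 3732 TPM in WT on day 3, and 1513 to 1577 against 1147 to 1156 TPM on day 0, and it overlapped on day 1. The smooth muscle sum was lower with the KO label on days 0 (84.4 to 98.3 against 111 to 122 TPM), 1 (69.8 to 88.9 against 149.9 to 186 TPM) and 3 (102 to 116 against 229 to 249.6 TPM), with Myh11 at no more than 3 counts in these groups. The adipocyte sum was lower as well, at 2.15 to 2.72 against 7.86 to 8.95 TPM on day 0, 7.05 to 11.1 against 17.7 to 18.3 TPM on day 1 and 8.32 to 8.68 against 14.8 to 15.95 TPM on day 3, with Adipoq, Plin1 and Lep at no more than 3 counts. The chondrocyte sum was lower on days 1 (33.5 to 60.7 against 72.2 to 78.1 TPM) and 3 (35.4 to 43.7 against 64.5 to 64.8 TPM), with Acan at no more than 3 counts in both genotypes on days 0, 1 and 3. The Schwann and neural sum was lower on day 0 (122 to 138 against 142 to 147 TPM) and higher on day 1 (119 to 150.4 against 83.4 to 95.1 TPM), with Sox10 at no more than 3 counts. The leukocyte sum was at most 3.48 TPM before day 6, and it was lower with the KO label on days 0 (1.84 to 2.57 against 2.95 TPM in both WT libraries) and 1 (0.93 to 2.13 against 2.21 to 2.38 TPM). The osteoblast sum was 1.61 to 1.96 against 0.48 to 0.80 TPM on day 3. The part of these markers in the differences of the Id genes, Msc, Twist2 and the E proteins was not tested.

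Genes of BMP and Smad signalling are the textbook input to Id transcription. Of 26 listed genes 22 were tested between genotypes, and 3 were higher and 6 lower on day 0, 7 and 11 on day 1, 4 and 11 on day 3, and 5 and 9 on day 6, beside 7.36%, 22.9%, 24.0% and 22.0% higher and 10.1%, 19.2%, 19.2% and 20.8% lower over all tested genes. Their median log2 fold change was -0.07, -0.19, -0.36 and -0.14, beside -0.00, 0.03, 0.04 and 0.00 for all tested genes. Bmp4, a BMP ligand, had a mean of 0.353 against 4.63 CPM on day 0 and 0.903 against 15.2 CPM on day 6, a log2 fold change of -4.07 (SE 0.240, adjusted p = 2.35e-12) on day 6. Bmpr1b, a type I BMP receptor, had a mean of 0.506 against 4.73 CPM on day 6 (-3.21, SE 0.291). Smad9, a receptor-activated Smad, had 0.752 against 3.94 CPM (-2.38, SE 0.255).

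Secreted BMP antagonists differed among themselves; Grem1 was added to the named genes after its values were seen. Nog, which encodes noggin, was higher with the KO label on all 4 days, with log2 fold changes of 1.63, 2.42, 1.13 and 1.07. Grem1, which encodes gremlin, was lower on all 4 days (-1.42, -1.03, -1.28 and -1.09), at 50.7 against 107.7 CPM on day 6. Chrd, which encodes chordin, was lower on day 1 (-0.76, adjusted p = 0.00813), gave -0.76 on day 0 (adjusted p = 0.131), and was higher on days 3 (1.36) and 6 (2.46), at 39.2 against 7.13 CPM on day 6. The inhibitory Smad7 and Smad6, themselves induced by BMP and TGF-beta signals, had negative interactions on day 3, at -0.64 (SE 0.148, adjusted p = 0.00554) and -0.81 (SE 0.192, adjusted p = 0.00678), as had Id2 (-0.51), while those of Id1 and Id3 were positive. Over the 22 tested genes of the list, the interaction passed as higher for 1 and lower for 4 on day 3 and for 1 and 5 on day 6, beside 6.65% and 4.06%, then 7.54% and 5.42%, of all tested genes. The list's median interaction was -0.31 and -0.29, beside 0.05 and 0.02 for all tested genes. The part of BMP signalling in the differences of the Id genes was not tested.

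Among 14 other repressors of E-box genes and MyoD inhibitors, all tested, 2 were higher and 3 lower in labelled-KO libraries on day 0, 4 and 6 on day 1, 2 and 3 on day 3, and 4 and 4 on day 6. Called in either direction over all tested genes were 17.5%, 42.2%, 43.2% and 42.9%. Heyl and Hey1, Notch-pathway repressors, were higher on all 4 days, with Heyl at 47.0 against 11.0 CPM on day 3 (log2 fold change 2.09, SE 0.181) and Hey1 at 28.5 against 13.9 CPM (1.04, SE 0.091). Snai1, a zinc-finger repressor that binds E-boxes, was lower, at 90.5 against 160 CPM on day 3 (-0.82, SE 0.171). Against growth medium on day 6, 10 of the 14 were higher and 2 lower in WT, and 8 higher and 3 lower with the KO label, with median log2 fold changes of 0.80 and 0.84, beside 0.05 for all tested genes in each. Over all tested genes 32.6% were higher and 31.1% lower in WT, and 36.6% higher and 33.5% lower with the KO label. Of 13 further tissue-specific partners of E proteins only 2 passed the filter on low counts; Scx, the tendon factor scleraxis, was at 126 against 71.4 CPM on day 6 (0.82, SE 0.128, adjusted p = 1.56e-05).

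The genes with the most similar profile were ranked by Pearson's r of log2 CPM over the 23 libraries among 10851 genes. The libraries fall into groups by day and genotype, so these values are descriptions and carry no p. For Id3 they were Tbrg4 (0.98), Ddx56 (0.98) and Eif3b (0.98), and for Id1 Elac2 (0.97), Prdx3 (0.96) and Eif3d (0.96). For Tcf4 they were Tspyl1 (0.98), Fbxo32 (0.98) and Tet2 (0.98). For Msc they were Bcl7a (0.91), Pmp22 (0.90) and Nog (0.89), and for Twist2 Gstp1 (0.94), Osgin1 (0.94) and Pparg (0.93). None of the genes of the set was among the 3 nearest of another.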

How the data were processed

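The authors deposited 2 gene tables over the 23 libraries, one of estimated counts (deposited as whole numbers; rounding changed no value) and one of TPM. TPM values are used as the authors deposited them, scaled for transcript length and library total. Per the submitters' processing notes, Bowtie2, RSEM and mm10 were used; versions, annotation and strand use are not given in the sources used here. RNA was selected for poly(A), per the labels.

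Rows were matched by symbol. Estimated counts were tested with edgeR 4.0.16 (R 4.3.3; glmQLFit, glmQLFTest) after TMM scaling and filterByExpr (minimum count 10, minimum total 15). All 23 libraries entered a single model with a mean per group and a shared estimate of spread. The 13 planned contrasts and 2 added after seeing the data were two-sided, with Benjamini-Hochberg adjustment over 14187 genes per contrast and a threshold of 0.05. Standard errors come from the F statistic. CPM is relative to the TMM-scaled library size; profiles used log2 CPM with a prior count of 2. Floors of 3 counts cover counting error only.

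The members, lists and tests were chosen with earlier results of these data known. Named genes were the 10 members, Runx1, the myogenic factors, and at most 4 genes per list and contrast, those with the largest called change and a group mean of at least 5 CPM; Grem1 was added after its values were seen, and 1 gene of a list is not reported here. All pairs of libraries within a group differed beyond counting noise (chi-square per degree of freedom at least 3.13). Alternatives were RLE size factors, library size alone, no filter, DESeq2 1.42.0, limma 3.58.1 on log2(TPM + 1) and log2(TPM + 0.1), only the groups compared, a replicate block, and each library left out in turn.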

Additional observations from a re-analysis of the deposited data

Results flagged for a closer look

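For 3 genes the interaction test of edgeR found a response to differentiation that depended on genotype. The differences in log2 fold change (labelled KO minus WT) were 1.55 for Id1 on day 3 and 1.99 on day 6, and 1.14 and 1.32 for Id3. For Id2 they were -0.67 on day 1, -0.51 on day 3 and -0.78 on day 6. All 7 kept their sign and stayed past the threshold in all alternatives and with any 1 library left out.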

How the results depend on the processing

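Of 120 values of the 8 tested genes over 15 comparisons, 76 passed the threshold, and none of these 76 changed direction in any alternative or with any library left out. Of the 76, 64 kept their call in every setting and 12 lost it in at least 1. The 12 were values of Tcf12 (6), Msc (3), Tcf3, Tcf4 and Id2 (1 each), and none was an interaction. The 15 values that did change direction somewhere were, as reported, at most 0.095 in size on the log2 scale, and none had passed as reported. The cause was not tested. Among the reversed values, Tcf3 in labelled KO on day 1 against day 0 passed the edgeR test without replicate 2 of day 1 (0.17, adjusted p = 0.0229). For WT day 1 against day 0, Tcf3 was 0.013 with library size alone, 0.080 on the log2(TPM + 1) scale and 0.080 on the log2(TPM + 0.1) scale. For labelled KO the same 3 alternatives gave 0.021, 0.048 and 0.048 for Tcf3 on day 1 and 0.022, 0.074 and 0.075 for Tcf12 on day 6. Tcf3 between genotypes on day 6 was -0.034 and -0.035 on the TPM scales, and Tcf12 in WT on day 3 was -0.026 without the filter. The Tcf3 interaction on day 1 was 0.0081 with library size alone. The Tcf4 interaction on day 3 was -0.026 with RLE, -0.070 and -0.059 on the TPM scales, -0.026 with DESeq2 and -0.017 with only the groups compared. The Twist2 interaction in these alternatives was -0.044, -0.060, -0.072, -0.044 and -0.034 on day 3, and -0.017 without the filter. On day 6 it was -0.0064, -0.043, -0.053, -0.0066 and -0.011, and -0.0033 with library size alone.

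Leaving out 1 library at a time gave ranges that crossed 0 for Id2 between genotypes on day 3 (-0.099 to 0.0041). In WT they crossed for Tcf3 on day 1 (-0.13 to 0.070) and Tcf12 on day 3 (-0.055 to 0.10). For labelled KO they crossed for Tcf3 on day 1 (-0.19 to 0.17), Msc on day 6 (-0.046 to 0.13) and Tcf4 on day 6 against day 1 (-0.10 to 0.016). Among interactions they crossed on day 1 for Id1 (-0.017 to 0.13), Tcf3 (-0.14 to 0.18) and Twist2 (-0.14 to 0.095). On day 3 they crossed for Tcf4 (-0.067 to 0.059) and Twist2 (-0.094 to 0.10), and on day 6 for Tcf4 (-0.11 to 0.033) and Twist2 (-0.17 to 0.14). The count of genes of the set called on day 1 between genotypes ranged from 3 to 7, beside 34.2% to 42.6% of all tested genes. Over all genes, 1265 to 2216 were called on day 0 between genotypes (2479 with all libraries), and 148 to 919, 829 to 1429 and 1184 to 1861 in the interactions of days 1, 3 and 6 (560, 1519 and 1839). Fitting only the groups compared called 3607 genes on day 1 between genotypes (5981 as reported), and 239 and 2613 in the interactions of days 1 and 3. In labelled KO day 6 against day 1 it called 3 genes of the set, beside 43.1% of all tested genes (5 as reported, beside 55.0%).

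The ratio of Id to E protein transcripts depends on the scale. From summed estimated counts it was 0.706, 0.0692, 0.0577 and 0.0719 in WT and 0.726, 0.0603, 0.0739 and 0.108 in labelled KO on days 0, 1, 3 and 6. Without the Id gene of highest TPM it was 1.27, 0.133, 0.0950 and 0.111 in WT and 1.29, 0.135, 0.210 and 0.269 in labelled KO. The gene left out was chosen per group. It was Id3 in both genotypes on day 0 and Id2 in both on days 1 and 3. On day 6 it was Id2 in WT and Id1 in labelled KO, so the day 6 values leave out different genes. Replicate numbers did not pair the libraries (correlations of same-numbered deviations from -0.24 to 0.12). With a replicate block 4, 4, 7 and 7 genes of the set differed between genotypes, beside 15.7%, 41.1%, 42.5% and 42.0% of all tested genes. As reported these were 4, 3, 7 and 7 genes, beside 17.5%, 42.2%, 43.2% and 42.9%. Among the 120 values the block lost 1 call (Tcf12, labelled KO day 3 against day 0, lost in 9 of 14 settings) and gained 1 (Id3 between genotypes on day 1, 0.35, adjusted p = 0.0466).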
